A study of Mus musculus with 4 samples.

Results

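Excitation-contraction coupling is the chain of events by which an electrical signal on the muscle membrane releases calcium from the sarcoplasmic reticulum. A set of 35 genes of this machinery was chosen by name, and every non-control probe carrying one of these names was followed on all arrays. Of the 35 genes, 34 had a probe and Kcna7, a voltage-gated potassium channel, had none of that name. They were covered by 67 of 41174 probes. Of these, 59 probes and 31 genes passed a filter on dim signal, among 27017 probes and 17848 gene names that passed it in all.

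The RNA came from the mouse cell line C2C12, whose myoblasts stop dividing and fuse into multinucleate myotubes in low serum. Both groups were differentiated for 6 days. One group was given human follistatin 288, a recombinant protein, at 200 ng/ml with a new dose every 24 h, and the other was untreated. Follistatin is a secreted protein that binds activins and myostatin. Each of 4 replicates, which the labels call biological, was 1 two-colour Agilent array with the follistatin RNA in Cy3 and the untreated RNA in Cy5. This assignment comes from the dye fields of every sample. The labelling protocol names every array a dye swap but spells that out as the same assignment, and the sign of each ratio below rests on it. With 1 orientation throughout, a dye effect particular to a probe adds to its ratio. The horse serum of the differentiation medium is 2% according to the growth protocol but 10% according to the source names. As bulk RNA of a culture in which some cells fuse and others do not, these ratios cannot tell fewer myotubes from less RNA per myotube.

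In skeletal muscle the dihydropyridine receptor in the T-tubule senses voltage and is mechanically coupled to the ryanodine receptor of the sarcoplasmic reticulum. Calsequestrin, triadin and junctin hold calcium near the release channel, junctophilins keep both membranes together, and the SERCA pump returns calcium to the store. Myoblasts gain most of this machinery as they differentiate.

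The arrays measured most of this machinery in both channels. Between 61.1% and 65.2% of non-control spots were well above background with follistatin, and 61.4% to 69.4% without it. Saturation affected 0 spots. All 23 myoblast and myotube markers examined were above background in both channels. So were 10 of 12 fibroblast markers, 6 of 7 cardiac markers (all but Myl7) and 3 of 8 fat cell markers (Lpl, Pparg and Cebpa, with Adipoq, Plin1, Cfd and Lep never above it). Of 14 markers of epithelium, endothelium, blood and nerve, 7 were never above it, including Epcam, Pecam1 and Ptprc, while others such as Cdh1, Krt8 and Cd68 passed the filter in 1 channel or both. Slide 1 carried replicates 1 to 3, and slide 2 carried replicate 4.

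The sequences show which stretch of each transcript was measured where probes of 1 gene gave different ratios. The first 30 of the 60 bases of each probe are given, in lower case with no part marked, with mm9 positions from the scanner files. A wide position spans an exon junction. Ryr1, the ryanodine receptor of skeletal muscle, had 3 tested probes, Trdn, the junctional protein triadin, had 4, and the other lines are the brightest probes of the genes with an unadjusted limma p under 0.05. For Ryr3, the probe with the lowest mean of its 6 is added.
Ryr1, chr7:29788789-29789487, minus strand: tttgagacccacactctagaagagcacaac
Ryr1, chr7:29789818-29790524, minus strand: tatcattcagggtctgattattgatgcttt
Ryr1, chr7:29807633-29807692, minus strand: cgcctactccctagtgcatactctctctct
Trdn, chr10:32859030-32859089, plus strand: tcacatggtcagctgttgctatcgtgatgt
Trdn, chr10:32919981-32920040, plus strand: tctgtcgatatatgattgacatgtttgtcc
Trdn, chr10:33184400-33187979, plus strand: aagaagattccaaagaagcaccaacttcaa
Trdn, chr10:33195978-33196037, plus strand: ttcaggttatagaccatgaaacatagtaca
Camk2g, chr14:21554205-21554264, minus strand: aaacaaaccaccttttaaacaggaaatgga
Ryr3, chr2:112471931-112471990, minus strand: tgttcaactcatgttaccttcgatctaatt
Ryr3, chr2:112569008-112569067, minus strand: catgctaccacattctgtgcagcctctact
Casq2, chr3:101949827-101949884, plus strand: actcagacccaagcctttggatgtcaatta
Hrc, chr7:52593267-52593524, plus strand: aatgtgaaagctgtcactgtgatgaggaga

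Taking all 31 tested genes together, the ratio of follistatin over untreated signal lay near 0 on average and differed widely between arrays. Of the 31, 0 had an adjusted p under 0.05 in limma, and the smallest adjusted p was 0.104. Among all gene names tested the share called was 0.00%, with a smallest adjusted p of 0.0910. An unadjusted p under 0.05 was reached by 4 members, beside 19.5% of all gene names. With follistatin, 3 of these were higher, beside 8.45% of all gene names, and 1 was lower, beside 11.0%. The unadjusted limma p-values were 0.00301 for Camk2g, 0.00621 for Ryr3, 0.0491 for Casq2 and 0.00765 for Hrc. Casq2 stayed under 0.05 in 8 of 19 alternative analyses and had 0.0557 with the authors' deposited table, against 17 to 19 analyses for the other genes. With array weights estimated from the data, which counted replicates 2 and 3 most, Hrc, Camk2g and Ryr3 had limma adjusted p-values of 0.0426, 0.0341 and 0.0393, and 2505 of the 17848 gene names passed. The median log2 ratio was 0.02 over the members and -0.02 over all gene names. A mean above 0 was seen in 17 members, against 46.5% of all gene names. A mean change over 1.6-fold, the minimum the authors used, was seen in 0 of 31 members and in 5.16% of all gene names.

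**Figure D1:**
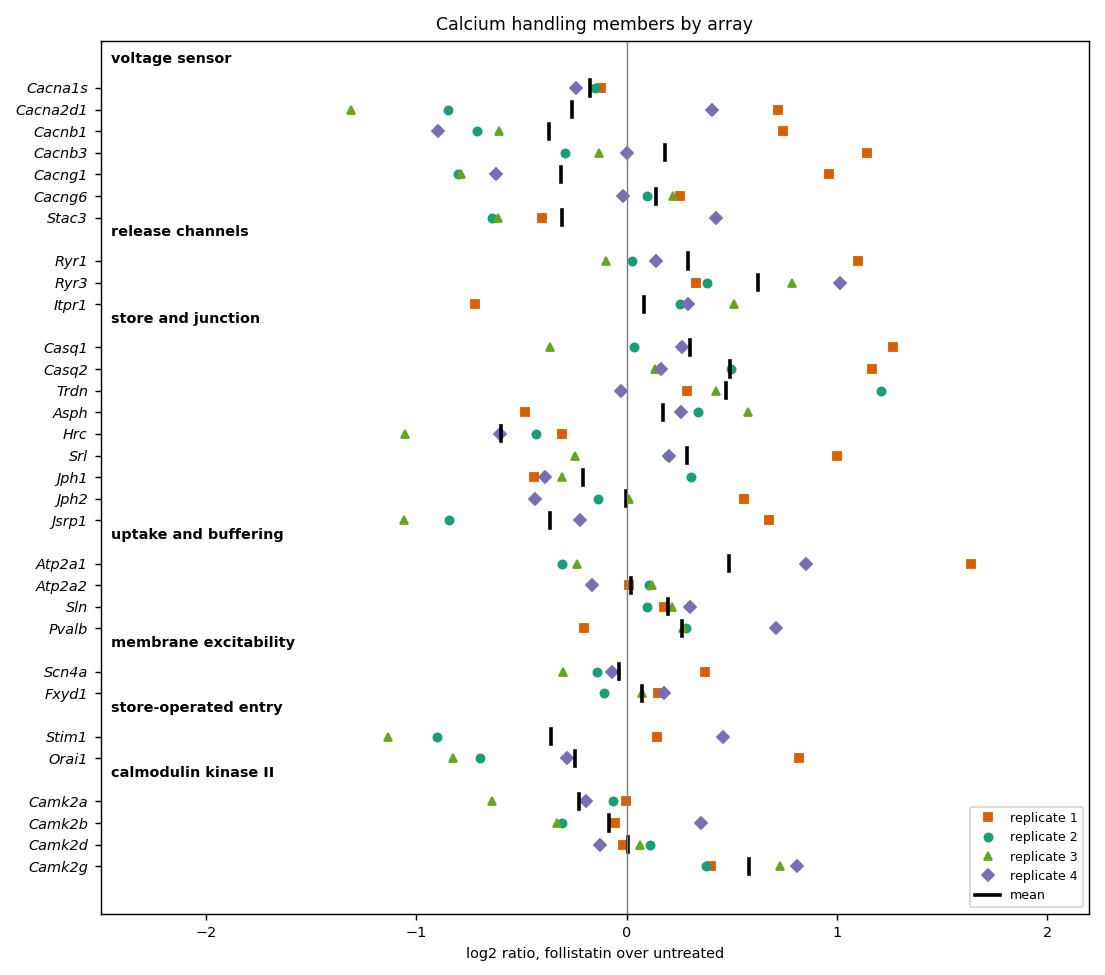
Log2 ratio of follistatin over untreated signal (horizontal axis) of the 31 tested genes, by role, with 1 symbol per array and a black bar at the mean; Cacna1s has 3 arrays because 1 spot was dropped as an outlier. Replicate 1 lies to the right of the other arrays for Cacnb3, Ryr1, Casq1, Casq2 and Atp2a1, while Camk2g, Ryr3 and Hrc keep 1 sign on all 4.

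The genes differed in how far the arrays resembled each other. The ratio had 1 sign on all 4 arrays in 6 of 31 members, beside 28.0% of all gene names. The 4 genes above 0 on every array were Ryr3, Casq2, Sln and Camk2g, beside 12.2% of all gene names. Sln passed the filter through the follistatin channel alone, so its sign was favoured by the filter. The 2 genes below 0 were Hrc and Camk2a, beside 15.8%. Another 9 members were above 0 on replicate 1 and below 0 on replicates 2 and 3, a pattern seen in 16.8% of all gene names. They were Cacna2d1, Cacnb1, Cacnb3 and Cacng1 of the voltage sensor, Jsrp1 of the triad, the pump gene Atp2a1, the sodium channel gene Scn4a, and Stim1 and Orai1 of store-operated calcium entry.

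The median ratio of the members was 0.29 on replicate 1, -0.06 on replicate 2, -0.18 on replicate 3 and 0.14 on replicate 4. The same medians over all gene names lay between -0.038 and -0.0013, where normalization within each array holds them near 0. Above 0 were 21 members on replicate 1, 15 on replicate 2, 13 on replicate 3 and 17 on replicate 4, beside 48.2%, 45.3%, 46.0% and 49.8% of all gene names. The share of members above 0 was thus highest on replicate 1 and lowest on replicate 3. The median of the 23 myoblast and myotube markers was 0.30, -0.43, -0.68 and -0.45 on replicates 1 to 4, so replicate 1 was again the array with the highest value. Over all 4 arrays, 0 of these markers were higher and 9 were lower at an unadjusted limma p under 0.05, beside 8.45% and 11.0% of all gene names, with 0 after adjustment. Of 10 tested fibroblast markers, 3 were higher at that threshold (Dpt 0.69, Col1a2 0.68 and Fbln2 0.62) and 0 lower, with list medians of 0.49, 0.08, -0.31 and 0.85 on replicates 1 to 4. The mean was positive for 7 of these markers and negative for 3. The latter were Pdgfrb (-0.16, below 0 on all 4 arrays), S100a4 (-0.11) and Fbln1 (-0.05). Of 3 tested fat cell markers, 2 were higher (Lpl 1.23 and Cebpa 0.58) and 0 lower, while Pparg had a mean of -0.16. The medians of this list were 0.87, 0.85, 0.66 and -0.12 on replicates 1 to 4. Of 11 tested reserve cell and progenitor markers, 3 were higher at that threshold (Vcam1 0.30, Notch3 0.33 and Hes1 0.41). Lower was 1, Id1 (-0.75), and the median of this list was 0.02. The part of these cell types in the members' ratios was not tested.

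**Figure D2:**
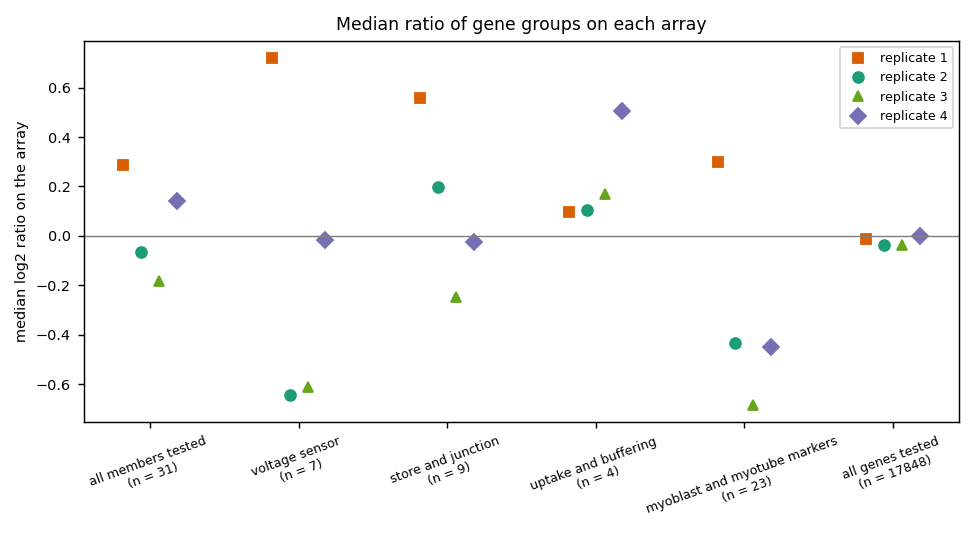
Median log2 ratio (vertical axis) of groups of genes on each array, 1 symbol per array, with the number of genes under each group. The voltage sensor genes lie at 0.72 on replicate 1 and near -0.6 on replicates 2 and 3. The median of all genes is held near 0 on each array by the normalization within arrays.

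The channels were then read separately, using the processed signals of the 28 members that exceeded background everywhere, on every array and in each channel. Each array and channel was scaled to its own median. This comparison was added after the ratios had been seen. In the untreated channel, replicate 1 had the lowest signal of the 4 arrays for 15 of 28 members (53.6%) and 13 of 23 myotube markers. The share was 25.6% of 15739 genes measured the same way. Untreated replicate 4 was lowest for 12 of 28 members (42.9%), against 48.4% of those genes. In the follistatin channel, replicate 3 was lowest for 12 of 28 members (42.9%) and 18 of 23 myotube markers, against 28.8% of those genes. The members' median deviation from each gene's own median over arrays was -0.33 on the log2 scale on untreated replicate 1, and 0.06, 0.01 and -0.07 on replicates 2 to 4. In the follistatin channel it was 0.12, -0.0032, -0.25 and 0.01. The high ratios of replicate 1 thus went with untreated signals that lay further below their median than the follistatin signals lay above theirs. The cause was not tested.

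The untreated signals of replicates 2 and 3 lay closer together than those of any other pair. The median absolute log2 difference between these 2 arrays was 0.07 over the 28 members in the untreated channel, and 0.18 to 0.64 for the other 5 pairs. In the follistatin channel the same arrays differed by 0.20, against 0.32 to 0.49. Over all 15739 genes the untreated difference was 0.10 for replicates 2 and 3 and 0.27 to 0.45 for the other pairs. Whether these arrays shared control RNA was not tested, and the errors and p-values given here count 4 arrays.

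**Figure D3:**
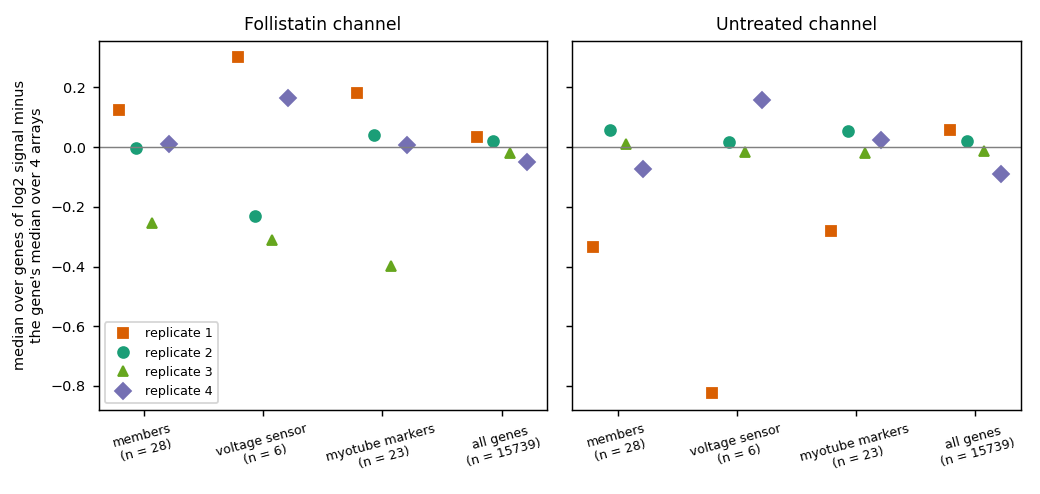
Median deviation of the log2 processed signal from each gene's own median over the 4 arrays (vertical axis), for the follistatin channel at left and the untreated channel at right, 1 symbol per array. Untreated replicate 1 lies at -0.33 for the members and at -0.82 for the 6 voltage sensor genes measured. It lies at 0.06 for all genes, a value held near 0 by scaling each array and channel to its own median.

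The voltage sensor held no gene that passed the test. Cacna1s, the pore and voltage sensor of the dihydropyridine receptor, had processed signals of 73253, 77865, 49873 and 62402 with follistatin and 74606, 78502, 72105 and 72162 without, on replicates 1 to 4. Its log2 ratio was -0.12, -0.15 and -0.24 on replicates 1, 2 and 4, and the spot of replicate 3 was dropped as an outlier. The mean was -0.17 (SE 0.10, n = 3, limma adjusted p = 0.426). With the dropped spot kept it was -0.34, and it was -0.35 when arrays were centred on their medians rather than by loess, where the unadjusted limma p was 0.0392. The 3 arrays used lay just below 0, and this probe did not share the high ratio of replicate 1. A fainter probe across an exon junction had 0.78, 0.16, 0.21 and -0.02, highest on replicate 1. Its mean was 0.28 ± 0.35 (SD, n = 4), so the probes disagreed in sign and on replicate 1.

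The accessory subunits differed from the brightest Cacna1s probe. Cacng1, the gamma subunit of the muscle channel, had signals of 13775, 7402, 7998 and 11036 with follistatin and of 6935, 12678, 13748 and 16876 without. Its log2 ratios were 0.96, -0.80, -0.79 and -0.62, so replicate 1 stood alone above 0. The mean was -0.31 (SE 0.33, n = 4, limma adjusted p = 0.629). Cacnb1, the beta subunit that places the channel in the membrane, had ratios of 0.74, -0.71, -0.61 and -0.90. Again only replicate 1 of these 4 arrays was above 0, and the mean was -0.37 (SE 0.29, limma adjusted p = 0.518).

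Cacna2d1, the extracellular alpha-2/delta subunit, had ratios of 0.72, -0.85, -1.31 and 0.41. Replicates 1 and 4 were high, and replicates 2 and 3 were low. Cacnb3, another beta subunit, had 1.14, -0.29, -0.13 and 0.00. Stac3, an adaptor required for coupling, was the exception among these genes, with -0.40 on replicate 1 and -0.64, -0.61 and 0.42 on the others. Cacng6, a further gamma subunit, was faint and had a mean of 0.14. Without replicate 1, Cacng1 stood at -0.74 and Cacnb1 at -0.74, with limma adjusted p-values of 0.176 for each.

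The release channels had means above 0. Ryr1, through which the store empties in skeletal muscle, had signals of 22547, 21461, 18216 and 22896 with follistatin and of 11333, 20410, 20529 and 20542 without. The follistatin signals thus varied little, and untreated replicate 1 was low. The log2 ratios were 1.10, 0.02, -0.10 and 0.14, with a mean of 0.29 (SE 0.22, n = 4, limma adjusted p = 0.496), and 0.02 without replicate 1. The second junction probe gave 0.44, and the probe at chr7:29807633-29807692, designed on a cDNA clone, gave -0.28 and was below 0 on all 4 arrays. Its signals, from 113 to 259 over both channels, were dim.

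Ryr3 is a ryanodine receptor isoform present in developing muscle. Its signals were 1387, 1459, 2141 and 2257 with follistatin and 1041, 1006, 1132 and 1062 without. The groups did not overlap. Here and below, the share of all gene names without such overlap was not counted, and these signals were not scaled between arrays. The ratios were 0.33, 0.38, 0.78 and 1.01, highest on replicates 3 and 4, with a mean of 0.63 (SE 0.15, n = 4, limma adjusted p = 0.126), or 1.54-fold with a 95% interval of 0.26 to 0.99 on the log2 scale. The 6 tested probes of this gene had means from -0.03 to 0.63, and 5 were positive. The faint positive probe at chr2:112487241-112488492 passed the filter through the follistatin channel alone, so its sign was favoured by the filter. Averaged over its probes, Ryr3 stood at 0.24 (limma adjusted p = 0.245). Itpr1, the inositol trisphosphate receptor, ran the other way across arrays: it was -0.72 on replicate 1 and 0.26, 0.51 and 0.29 on replicates 2 to 4 (mean 0.08, limma adjusted p = 0.859).

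Among the calcium-binding proteins of the store, Casq2, the cardiac and slow-muscle calsequestrin, had ratios above 0 on every array. Its signals were 37249, 39069, 29060 and 32279 with follistatin and 16381, 26945, 26159 and 28620 without. The lowest treated signal, 29060, was just above the highest untreated one, 28620, which came from another array. Replicate 1 was low in the untreated channel. The log2 ratios were 1.17, 0.50, 0.13 and 0.17, with a mean of 0.49 (SE 0.19, n = 4, limma adjusted p = 0.256), and without replicate 1 it was 0.27. Casq1, the fast-muscle form, had ratios of 1.26, 0.04, -0.37 and 0.26. Its mean was 0.30 with all arrays and -0.02 without replicate 1. Srl, the calcium-binding sarcalumenin, had ratios of 1.00, 0.20, -0.25 and 0.20, again with replicate 1 highest, and a mean of 0.29 that was 0.05 without it.

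Hrc, a histidine-rich calcium-binding protein of the store that binds triadin, was the only member with a negative mean and an unadjusted p under 0.05. Its signals were 28773, 32107, 20534 and 26418 with follistatin and 36804, 42940, 42558 and 40148 without. Every treated signal lay below every untreated one. The log2 ratios were -0.31, -0.43, -1.05 and -0.60, with a mean of -0.60 (SE 0.15, n = 4, limma adjusted p = 0.134), or 1.51-fold higher in untreated cells.

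Trdn, which anchors calsequestrin to the release channel, had positive means for all 4 tested probes. The brightest gave 0.29, 1.21, 0.42 and -0.02, with replicate 2 far above the rest and a mean of 0.47 (SE 0.21, limma adjusted p = 0.293). The probe at chr10:33195978-33196037 had signals of 507, 805, 595 and 633 with follistatin and of 264, 260, 257 and 263 without. These untreated signals were nearly equal, and every treated signal lay above every untreated one. The share of all probes separated in this way was not counted. This probe had the smallest limma p of the tested member probes. Its ratios were 0.65, 1.08, 0.77 and 0.92, with a mean of 0.86 ± 0.18 (SD, n = 4) and an adjusted limma p of 0.0991 in the fit over all probes. Asph, whose locus encodes junctin as well as an aspartate hydroxylase, had 5 tested probes with means from 0.15 to 0.36. The brightest was -0.48 on replicate 1 and 0.34, 0.58 and 0.26 on the others. The faint Asph probe at chr4:9556800-9556859 (mean 0.19) passed the filter through the follistatin channel alone, so its sign was favoured by the filter.

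The genes that hold the junction together had no common course. Jph1, the junctophilin of skeletal muscle, had ratios of -0.44, 0.31, -0.31 and -0.39, and a fainter probe had a mean of 0.17 against -0.21 for the brightest. Jph2, a junctophilin shared with heart, had 0.56, -0.14, 0.01 and -0.44, and its other probe had a mean of 0.60. Jsrp1, which links the voltage sensor to calsequestrin, had 0.68, -0.85, -1.06 and -0.22. Replicate 1 was the highest array for both Jph2 and Jsrp1.

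**Figure D4:**
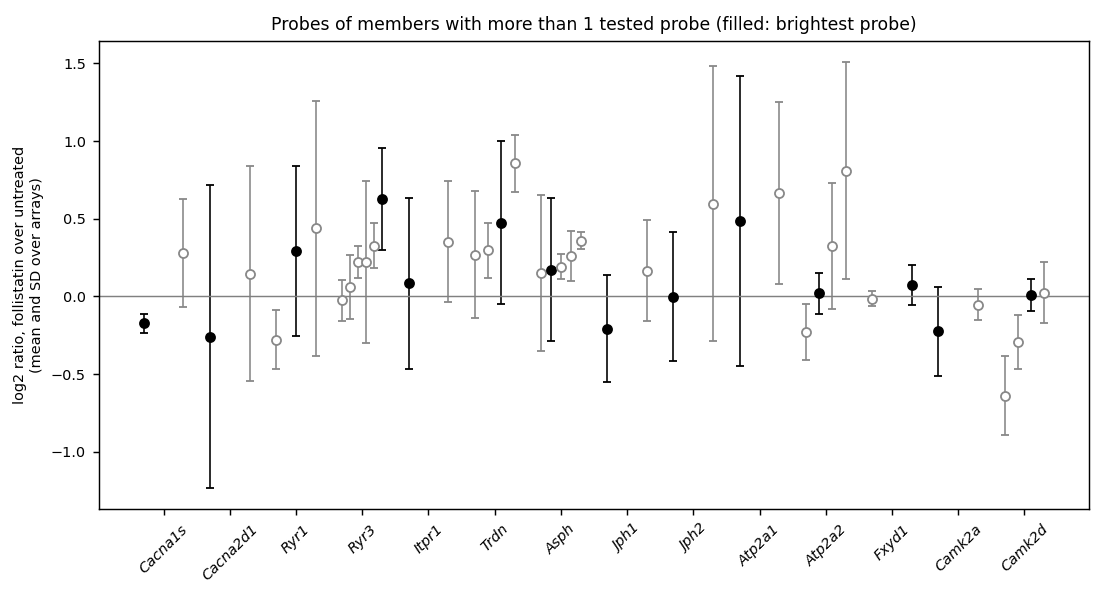
Mean log2 ratio with its SD over arrays (vertical axis) for each tested probe of the 14 members with more than 1, the brightest probe filled. The probes of 9 of these members have means of both signs, and those of Itpr1, Trdn, Asph and Atp2a1 are all positive. The only negative Atp2a2 probe and a positive Asph probe passed the filter through 1 channel alone, which favoured their signs.

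The probes of 1 gene share a target, so they are not replicates of the treatment. Over the 59 tested probes, 14 had an unadjusted limma p under 0.05 in the fit over all probes, beside 19.1% of all probes. Of these, 10 were higher, beside 8.57%, and 4 were lower, beside 10.5%. A single sign on all 4 arrays was seen in 17 of the 59, beside 27.3% of all probes. After adjustment 0 remained, beside 0.00%. Of the 14 members with several tested probes, 9 had means of both signs. A probe each of Ryr3, Asph and Sln passed the filter through the follistatin channel alone. A probe each of Atp2a2 and Camk2a passed it through the untreated channel alone. The signs of these probes were favoured by the filter, and the Atp2a2 probe was the only negative one of its gene.

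The SERCA pump genes differed in how far their probes resembled each other. Atp2a1, the SERCA1 pump of fast muscle, had signals of 12252, 6716, 7336 and 12628 with follistatin and of 3902, 8196, 8542 and 6768 without. The ratios were 1.64, -0.31, -0.23 and 0.85, so replicates 1 and 4 were high and replicates 2 and 3 low. The mean was 0.49 (SE 0.36, n = 4, limma adjusted p = 0.487), and 0.10 without replicate 1. A second probe was above 0 on all 4 arrays, at 1.53, 0.38, 0.48 and 0.26.

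Atp2a2, the SERCA2 pump of slow muscle and other tissues, had signals of 51234, 55787, 51338 and 37474 with follistatin and of 51502, 51779, 46205 and 41585 without. The groups overlapped, and the ratios of 0.01, 0.11, 0.12 and -0.16 averaged 0.02 (SE 0.09, n = 4, 95% interval -0.21 to 0.25, limma adjusted p = 0.925). Another probe of this gene, at chr5:122910660-122910719, had ratios of 1.26, 0.92, 1.26 and -0.21, with replicate 4 apart from the rest. The tested probes of Atp2a2 ranged from -0.23 to 0.81. The lowest of them, faint and the only negative one, passed the filter through the untreated channel alone, so its sign was favoured by the filter.

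Sln, the small peptide sarcolipin that inhibits the pump, was faint. It was well above background on 4 arrays with follistatin and on 1 without. Its processed signals were 52, 38, 33 and 57 with follistatin and 21, 25, 20 and 16 without. Since the gene passed the filter through the follistatin channel, this order of the channels was favoured by the filter. The log2 ratios after background correction with an offset were 0.18, 0.10, 0.21 and 0.30, with a mean of 0.20 (SE 0.09, n = 4, limma adjusted p = 0.282). The ratio of the processed signals, which carry no offset, had a mean of 1.12. With the untreated side not well above background on 3 of 4 arrays, neither value is a measured size. Pln, the related inhibitor phospholamban, was not well above background on any array in either channel. Pvalb, a calcium buffer of fast fibres, had ratios of -0.20, 0.28, 0.27 and 0.71, with a mean of 0.26.

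**Figure D5:**
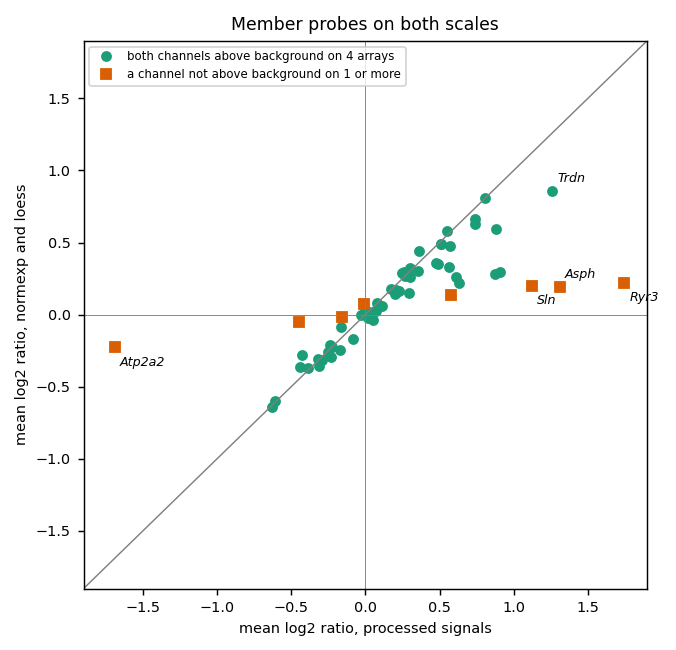
Mean log2 ratio of the 59 tested member probes from processed signals (horizontal axis) and after normexp correction and loess (vertical axis), with a line of equality; squares mark probes not above background in a channel on 1 or more arrays. Bright probes lie near the line, and the faint Sln probe lies at 1.12 on the horizontal and 0.20 on the vertical axis.

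The remaining genes act at the surface membrane or read the calcium signal. Scn4a, the sodium channel that carries the muscle action potential, had ratios of 0.37, -0.14, -0.30 and -0.07. Fxyd1, a regulator of the sodium pump, had a mean of 0.07 from a faint probe. Clcn1, the muscle chloride channel, was never well above background, and Kcnj11, the pore of the ATP-sensitive potassium channel, was so on 1 array with follistatin and 2 without.

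Stim1, the calcium sensor of the store, had signals of 3627, 2231, 2090 and 6043 with follistatin and of 3122, 4161, 4345 and 4326 without. Its ratios were 0.15, -0.90, -1.14 and 0.46, with replicates 2 and 3 low, and averaged -0.36 (SE 0.30, n = 4, limma adjusted p = 0.544). Orai1, the membrane channel that Stim1 opens, had 0.82, -0.70, -0.82 and -0.28. Both genes were positive on replicate 1 and negative on replicates 2 and 3.

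Camk2g, a subunit of the calmodulin-dependent kinase II that is activated by calcium, had the smallest p of the set. Its signals were 15975, 15656, 18280 and 17934 with follistatin and 12520, 12210, 11213 and 10330 without. The groups did not overlap. The log2 ratios were 0.40, 0.38, 0.73 and 0.81, higher on replicates 3 and 4, with a mean of 0.58 (SE 0.11, n = 4, 95% interval 0.29 to 0.87, limma adjusted p = 0.104), or 1.50-fold. The other kinase II genes did not share this. Camk2a was below 0 on all 4 arrays, at -0.0045, -0.06, -0.64 and -0.19, so replicates 1 and 2 lay near 0. Its mean was -0.22, and a fainter probe had a mean of -0.05. Camk2b had a mean of -0.09, and the brightest Camk2d probe had a mean of 0.01. A Camk2d probe at chr3:126512365-126512424, designed on a cDNA clone, had ratios of -0.93, -0.31, -0.69 and -0.62, so the means of these Camk2d probes lay further apart than the SD of either over arrays. Another Camk2d probe, at chr3:126545798-126545857, was also below 0 on all 4 arrays, with a mean of -0.29. The remaining tested probe of this gene had a mean of 0.03.

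Other genes of calcium handling were examined as lists. Of 140 further genes, 111 were tested and 0 passed adjustment in limma, with 7 higher and 7 lower at an unadjusted p under 0.05 and a median of -0.01. The shares of all gene names at that threshold were 8.45% higher and 11.0% lower, so these counts were not above the background, and the counts of the shorter lists below are to be read beside it. Among 20 tested pumps, exchangers and buffers, 2 were higher and 0 lower at that threshold. They were the lumenal calcium-binding proteins Rcn1 (0.67, limma adjusted p = 0.164) and Calu (0.86, limma adjusted p = 0.209), and the list median was 0.15. Among 16 genes of triad and T-tubule structure, 1 was higher and 3 lower, including Mtm1, a lipid phosphatase of the triad (-0.64), and Sypl2, which encodes mitsugumin 29 (-0.33).

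Of 20 other calcium channels of the surface membrane and their partners, 2 were higher and 1 lower at an unadjusted p under 0.05. The channel kinase Trpm7 had a mean of 0.57, and Stim2, a relative of Stim1, had 0.42. Among 14 other release channels and partners, 0 were higher and 1 lower, the inositol trisphosphate receptor Itpr2 (-0.43), and Sri, which encodes sorcin, had -0.31. Among 17 sodium, potassium and chloride channel and pump genes, 0 were higher and 2 lower, Kcnc4 (-0.36) and Fxyd6 (-0.99). Of 24 genes of calcium-dependent signalling, 2 were higher, the transcription factor Nfat5 (0.33) and the protease Capn2 (0.57), and 0 lower.

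Promoter sequence was examined for motifs of muscle transcription factors. RefSeq promoters of GRCm38.p6, a later build than that of the probes, were available for 21 of the 35 members, and the 250 bases before each start were searched. Unmatched were Cacng1, Stac3, Ryr3, Itpr1, Trdn, Asph, Srl, Jph1, Jsrp1, Atp2a2, Sln, Kcnj11, Camk2a and Camk2g. The E-box form CAGCTG, bound by myogenic factors, occurred in 13.0% of all 32851 promoters and in 7 of 25 member promoters. They were those of Atp2a1, Cacna1s, Casq1, Hrc and Orai1 and 2 of Jph2. The 2 Jph2 promoters overlap and hold the same site, and by gene the count was 6 of 21. The general E-box CANNTG, which includes CAGCTG, occurred in 66.2% of all and in 16 of 25, or in 15 of 21 genes. The MEF2 motif occurred in 2.92% of all and in 3 of 25, those of Casq2, Clcn1 and Pvalb. All 3 motifs read the same on both strands. Casq2 and Hrc are shown because their ratios kept opposite signs on all arrays, and Cacna1s as the pore of the voltage sensor. Capitals mark CAGCTG in Cacna1s and Hrc and the MEF2 motif in Casq2.
Casq2, chr3:102086165-102086414, plus strand: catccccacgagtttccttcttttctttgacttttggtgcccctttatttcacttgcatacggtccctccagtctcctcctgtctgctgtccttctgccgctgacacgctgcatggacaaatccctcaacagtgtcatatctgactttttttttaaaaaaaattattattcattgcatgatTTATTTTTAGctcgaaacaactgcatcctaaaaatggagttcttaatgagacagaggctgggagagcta
Hrc, chr7:45335019-45335268, plus strand: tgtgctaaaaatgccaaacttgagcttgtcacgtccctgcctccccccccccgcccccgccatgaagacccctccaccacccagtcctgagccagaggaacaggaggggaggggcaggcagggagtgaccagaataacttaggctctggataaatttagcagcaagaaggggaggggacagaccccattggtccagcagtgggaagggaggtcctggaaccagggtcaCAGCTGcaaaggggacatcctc
Cacna1s, chr1:136052561-136052810, plus strand: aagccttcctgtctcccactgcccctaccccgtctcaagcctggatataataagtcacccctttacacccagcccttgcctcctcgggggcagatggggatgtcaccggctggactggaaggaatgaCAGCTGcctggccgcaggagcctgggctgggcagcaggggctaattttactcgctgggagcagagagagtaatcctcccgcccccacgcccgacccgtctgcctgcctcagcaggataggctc
A match describes these letters and no binding was measured. Casq2, with a mean ratio of 0.49, held the MEF2 motif and no CAGCTG, whereas Hrc, at -0.60, and Cacna1s, at -0.17, held CAGCTG and no MEF2 motif. The promoters with CAGCTG thus belonged to genes with ratios of both signs, since Atp2a1 stood at 0.49.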

How the data were processed

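Per the file headers, the authors' spot intensity came from Agilent Feature Extraction 10.7.3.1, or 10.10.1.1 for replicate 4. The deposited intensity columns hold median spot and background brightness, and processed signals from which the software had removed background and dye bias. The deposited log10 ratio was read for its direction. Each column of the authors' log2 value table equalled the log2 of processed Cy3 over Cy5 of its array (slope 1.00 over 41174 probes), with medians of -0.16, 0.17, 0.13 and 0.11. Scale and dye order are therefore known, and the columns had not been centred. Which RNA carried which dye was taken from the labels.

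Values were computed in R 4.3.3 with limma 3.58.1 (statmod 1.5.0, data.table release 1.17.8). Median signals were corrected by normexp (offset 50) and normalized within arrays by loess (span 0.3, 4 iterations, controls at weight 0). Outlier spots were dropped. A probe was tested if at least 3 of 4 arrays showed it well above background in 1 channel, and the brightest tested probe stood for a gene, named as in the scanner file of replicate 4. Ratios were tested against 0 with lmFit and eBayes, adjusted by Benjamini-Hochberg over 17848 gene names, at 0.05. The offset makes ratios of faint probes understate the change. The procedure was tested on simulated data. Alternatives were other corrections, filters, probe rules and array weights, the slide as a block, arrays left out and the methods' unpaired test. The number of arrays limits the precision.

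The members and lists were chosen with earlier results of these data known. Genes described in full had an unadjusted p under 0.05 or were the lead protein of their role, and each further list is represented by genes of smallest p.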

Additional observations from a re-analysis of the deposited data

Results flagged for a closer look

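Cacng1, the gamma subunit of the muscle calcium channel, had a log2 ratio of 0.96 on replicate 1, far from the 3 other arrays, which lay between -0.80 and -0.62. It was singled out because the gap between replicate 1 and its nearest neighbour took up most of the range of the 4 arrays. The rule was applied to 31 items and picked out 1, and chance picks out about 1 in 20. On replicate 1 the untreated signal of this gene was 6935, against 12678 to 16876 on the other arrays, and the follistatin signal was 13775, against 7402 to 11036.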

How the results depend on the processing

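The ratio of each array pairs its channels. The methods' unpaired test of the channels left 0 members passing adjustment, with 2 higher and 1 lower at an unadjusted p under 0.05, beside 14.4% of all gene names. The count of members passing adjustment was 0 under every alternative except estimated array weights (0.560, 2.19, 1.79 and 0.455 for replicates 1 to 4), which favour the 2 arrays that resemble each other. There it was 3, with Hrc at -0.65 (adjusted p = 0.0426), Camk2g at 0.55 (0.0341) and Ryr3 at 0.58 (0.0393), 9 members (4 higher, 5 lower) had an unadjusted p under 0.05, beside 37.9% of all gene names, 2505 of all gene names passed, and Cacnb3 stood at -0.046. Unadjusted counts were 8 (6 higher, 2 lower, beside 18.7% of all gene names) with the mean over tested probes and 4 to 10 when 1 array was left out, the highest without replicate 1 (5 higher, 5 lower, beside 19.6%). Median centring in place of the loess step gave 2 higher and 2 lower. Over all alternatives the adjusted p ran from 0.034 to 0.665 for Camk2g, 0.039 to 0.672 for Ryr3, 0.043 to 0.676 for Hrc and 0.107 to 0.717 for Casq2, and their signs did not turn.

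The log2 ratio took the other sign under 1 or more alternatives for 17 of 31 members, of which 7 lay within 0.1 of 0 and 10 further away. The cause was not tested. With processed signals, as with the authors' table, it was -0.0095 for Camk2d, 0.051 for Scn4a and -0.0074 for Fxyd1. After median centring of those signals it was -0.038 for Atp2a2, -0.073 for Camk2d and -0.071 for Fxyd1. With medians instead of loess it was -0.093 for Atp2a2, 0.012 for Jph2 and 0.0098 for Scn4a. With an offset of 16 it was -0.00037 for Camk2d. Averaged over probes it was 0.10 for Cacna1s, -0.22 for Camk2d and 0.30 for Jph2. With replicates 2 and 3 as 1 array it was -0.012 for Atp2a2, 0.019 for Jph2, -0.017 for Camk2d, 0.015 for Cacna2d1, -0.015 for Itpr1 and 0.028 for Scn4a. On replicates 1 and 4 alone, chosen after seeing the data, it was -0.075 for Atp2a2, 0.011 for Stac3, 0.23 for Jsrp1, 0.17 for Cacng1, 0.059 for Jph2, -0.070 for Camk2d, 0.56 for Cacna2d1, 0.30 for Stim1, -0.21 for Itpr1, -0.11 for Asph, 0.27 for Orai1, 0.15 for Scn4a and 0.15 for Camk2b. With 1 array left out in turn it ran from -0.14 to 0.34 for Cacnb3, -0.022 to 0.52 for Casq1, -0.014 to 0.081 for Atp2a2, -0.19 to 0.14 for Jph2, -0.025 to 0.054 for Camk2d, -0.17 to 0.055 for Scn4a, -0.58 to 0.092 for Cacna2d1 and -0.058 to 0.35 for Itpr1.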
